A study of Mus musculus with 22 samples.

Results

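Upper-layer cortical neuron genes were followed through the embryonic mouse telencephalon, the forebrain vesicle that forms the cortex and basal ganglia. The set held 9 genes, Cux1, Cux2, Pou3f2, Pou3f3, Rorb, Unc5d, Mef2c, Inhba and Lmo4, chosen by symbol as genes known from upper-layer neurons. All 9 were among the 16237 genes tested in RNA. They and the lists set beside them were chosen with earlier results of these data known. Shares of all genes given beside their counts are therefore descriptive. The samples were telencephalon of ICR mice, with no genotype or treatment named, taken at embryonic day 13.5 (E13.5) or embryonic day 16.5 (E16.5). RNA-seq of polyadenylated RNA and ChIP-seq of 3 histone marks had 2 libraries per stage, stated to be biological replicates, and ATAC-seq, which reads open chromatin, had 2 libraries at E13.5. The marks were H3K9ac (acetylation of lysine 9 of histone H3), H3K9cr (crotonylation of the same residue) and H3K18la (lactylation of lysine 18). The series also lists 4 input libraries, which were not analysed here. The number of embryos per library was not stated.

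Cortical projection neurons are born in order from progenitors that line the ventricle, deep-layer neurons first and upper-layer neurons later, and the later-born cells migrate past the earlier ones. Upper-layer neurons include the callosal neurons, which join the hemispheres, and the cells of layer IV, which receive thalamic input. Histone acetylation and crotonylation are known from active promoters and enhancers. Lactylation is a related modification that uses lactate-derived groups.

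The tissue was whole, so neurons of other layers, inhibitory neurons, glia, vessels and blood contributed to every value. Summed RNA of 8 endothelial markers went from 102 and 114 CPM at E13.5 to 410 and 418 CPM at E16.5, and that of 8 microglial markers from 50.6 and 48.9 to 110 CPM in each E16.5 library. CPM is the count scaled to a common library size. All 8 markers of each of these lists rose, all 8 radial glia and progenitor markers fell, and no marker in these 3 lists was at 0. Of 8 markers of telencephalon and excitatory neurons, 6 fell and 0 rose. The number that fell depended on the setting: 5 with DESeq2, 4 with upper-quartile scaling and 7 without a filter on low counts, with 0 rising in each. Neurod2, a factor of cortical excitatory neurons, stood at 365 to 423 CPM over the 4 libraries and did not pass the test. Of the other lists, 4 of 10 inhibitory neuron markers rose and 6 fell, 5 of 6 astrocyte markers and 4 of 5 erythroid markers rose, and of 5 oligodendrocyte lineage markers 4 rose and 1 fell. DESeq2 called 5 inhibitory neuron markers lower, without Dlx6, and 4 astrocyte markers higher, without Gja1. In such bulk samples more cells of a type and more RNA per cell cannot be told apart. The part of these shifts in the results below was not tested. RNA libraries held 17059544 to 18485855 counts.

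The promoters of the set differed widely in sequence. RefSeq (GRCm38.p6) gave 14 start sites for 8 of the genes; Unc5d is named without a start. Shown are the 250 bases before 5 of those starts, 5′ to 3′ on the gene's strand, with each CG dinucleotide, the site of DNA methylation in mammals, in capitals. The first 2 belong to Mef2c and are shown because start 2 lay inside an H3K9ac and an H3K9cr peak in every library and start 1 had no peak near it. Inhba had the strongest rise in RNA of the set, and Pou3f2 and Pou3f3 lay in the broadest marked domains. They lie at chr13:83503784-83504033 (plus strand), chr13:83523406-83523655 (plus), chr13:16011601-16011850 (plus), chr4:22488367-22488616 (minus) and chr1:42695518-42695767 (plus).
Mef2c start 1: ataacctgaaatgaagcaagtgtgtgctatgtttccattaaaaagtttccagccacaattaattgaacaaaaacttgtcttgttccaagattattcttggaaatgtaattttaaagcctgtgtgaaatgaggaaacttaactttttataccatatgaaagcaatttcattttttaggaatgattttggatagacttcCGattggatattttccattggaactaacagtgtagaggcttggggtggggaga
Mef2c start 2: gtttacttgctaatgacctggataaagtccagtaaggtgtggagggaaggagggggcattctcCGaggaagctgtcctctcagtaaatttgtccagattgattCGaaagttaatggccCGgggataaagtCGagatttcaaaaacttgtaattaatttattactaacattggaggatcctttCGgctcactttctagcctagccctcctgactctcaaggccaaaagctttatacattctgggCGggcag
Inhba start 1: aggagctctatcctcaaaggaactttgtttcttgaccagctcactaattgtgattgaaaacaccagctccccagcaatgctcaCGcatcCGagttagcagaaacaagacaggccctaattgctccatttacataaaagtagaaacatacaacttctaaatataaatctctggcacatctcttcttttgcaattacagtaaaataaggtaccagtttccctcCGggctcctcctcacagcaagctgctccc
Pou3f2 start 1: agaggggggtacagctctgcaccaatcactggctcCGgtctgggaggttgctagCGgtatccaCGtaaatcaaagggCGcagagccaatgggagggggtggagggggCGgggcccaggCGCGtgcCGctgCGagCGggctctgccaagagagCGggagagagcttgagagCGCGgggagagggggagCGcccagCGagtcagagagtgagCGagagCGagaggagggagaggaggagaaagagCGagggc
Pou3f3 start 1: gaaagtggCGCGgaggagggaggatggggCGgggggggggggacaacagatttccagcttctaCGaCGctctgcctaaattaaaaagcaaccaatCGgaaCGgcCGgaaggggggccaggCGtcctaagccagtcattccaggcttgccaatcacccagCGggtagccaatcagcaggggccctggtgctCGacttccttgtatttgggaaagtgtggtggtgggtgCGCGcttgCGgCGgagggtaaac

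Counted over 300 bases, from 250 before to 50 after the start, Mef2c had 1 CG at start 1 and 10 at start 2, Inhba had 7, Pou3f2 had 24 and Pou3f3 had 18. The median of all 32851 promoters in the table was 7. The densest start of the set was start 1 of Lmo4 with 52 CGs, more than 99.4% of promoters, followed by start 1 of Cux2 with 48. GC content of the same windows ran from 35.7% at Mef2c start 1 to 81.3% at Lmo4 start 1. Motifs were counted on both strands in these windows. The POU octamer ATGCAAAT was in 0 of the 14 member windows and 1.74% of all promoters, the ROR element AGGTCA in 2 of 14 and 16.3%, and the E-box CAGATG in 2 of 14 and 17.2%. The CCAAT box was in 5 of 14 windows and 37.4% of promoters, with 3 copies before Pou3f3 and 2 each before Pou3f2 and Mef2c start 1. The MEF2 site was in 0 of 14 windows and 0.557% of promoters. These are matches of letters, and binding was not measured.

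The stage comparison of RNA asked which upper-layer genes changed between E13.5 and E16.5. Of the 9 genes, 7 were higher at E16.5 and 0 were lower at an adjusted p under 0.05 in the edgeR quasi-likelihood test with Benjamini-Hochberg adjustment over all tested genes. Of all 16237 genes, 28.4% were called higher and 29.2% lower, 57.6% in all. For the same 7 genes both E16.5 libraries lay above both E13.5 libraries, which held for 39.7% of tested genes. The median log2 change of the 9 was 0.65, against 0.01 over all tested genes, and 3 members rose by more than 2-fold (Inhba, Mef2c and Unc5d), as did 12.7% of tested genes. Cux1 and Pou3f3 did not pass. Because the set was chosen with earlier results of these data known, these shares describe it and do not test it.

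**Figure D1:**
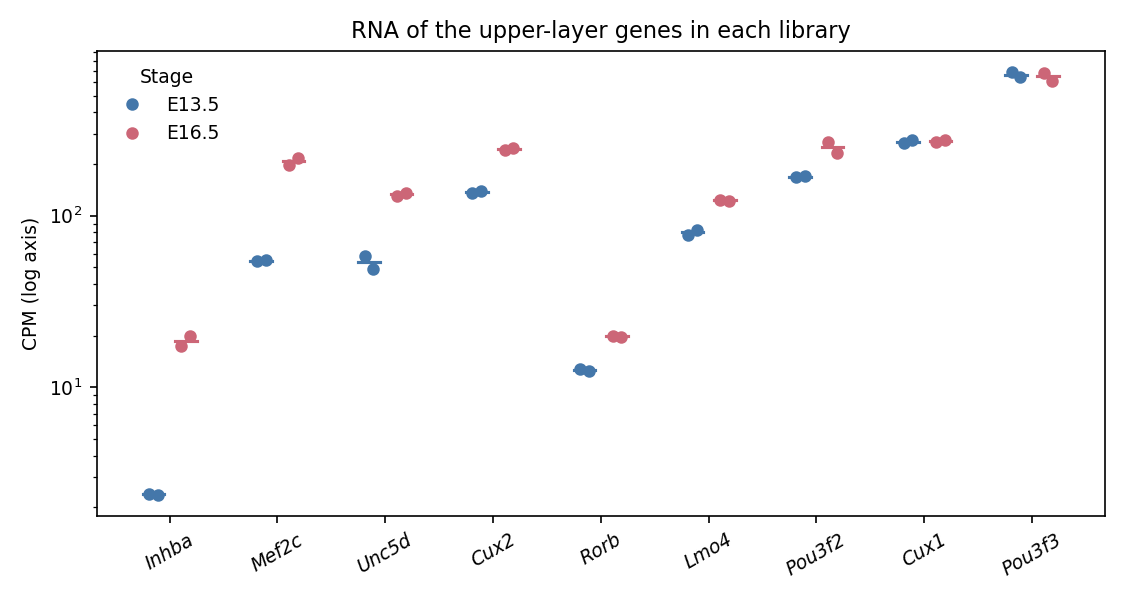
RNA of the 9 upper-layer genes in CPM (log axis), with 1 point per library, E13.5 in blue and E16.5 in red, and a line at the mean of each stage. The stages are apart for 7 genes, from Inhba with the largest difference to Pou3f2, and overlap for Cux1 and Pou3f3.

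Among the transcription factors, Mef2c changed most. It encodes a MADS-box factor of cortical projection neurons that is also known from microglia and endothelium. Mef2c stood at 54.6 and 54.98 CPM in the E13.5 libraries and 198 and 217 CPM in the E16.5 libraries. Both E16.5 values lay far above both E13.5 values, and the gap within a stage was small beside that. The fold was 3.79 (log2 change 1.92, SE 0.06, edgeR adjusted p = 5.2e-07), and 4.32% of tested genes had a larger log2 change. The microglial and endothelial marker sums given above also rose between these libraries.

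Cux2, a homeodomain factor of upper-layer neurons and their progenitors, had 136 and 139 CPM at E13.5 and 240 and 247 CPM at E16.5. Its fold was 1.77 (log2 change 0.82, SE 0.05, edgeR adjusted p = 5.9e-06). Cux1, its paralog, had 264 and 275 CPM at E13.5 and 268 and 278 CPM at E16.5. The 2 paralogs therefore parted: Cux2 values did not overlap between stages and Cux1 values did. The log2 change of Cux1 was 0.02 with a 95% interval of -0.09 to 0.13 (edgeR adjusted p = 0.766).

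The POU factors parted in the same way. Pou3f2 (Brn2), which acts in the production and migration of upper-layer neurons, had 167 and 170 CPM at E13.5 and 269 and 232 CPM at E16.5. Its log2 change was 0.57 (SE 0.07, edgeR adjusted p = 0.00028). Pou3f3 (Brn1), which acts together with Pou3f2, had 689 and 640 CPM at E13.5 and 683 and 612 CPM at E16.5. Its stages overlapped, and its log2 change was -0.04 with a 95% interval of -0.17 to 0.10 (edgeR adjusted p = 0.617). The differences in stage change between Cux1 and Cux2, and between Pou3f2 and Pou3f3, were not tested.

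Rorb, a nuclear receptor of layer IV neurons, varied little between replicates. It had 12.7 and 12.5 CPM at E13.5 and 19.9 and 19.7 CPM at E16.5. Its log2 change was 0.65 (SE 0.11, edgeR adjusted p = 0.0011). Lmo4, a LIM-only cofactor that marks callosal and other projection neurons by area, had 77.1 and 82.9 CPM at E13.5 and 124 and 122 CPM at E16.5. Its log2 change was 0.62 (SE 0.05, edgeR adjusted p = 3.8e-05). Both genes rose with no overlap between stages, by close to the median of the set.

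Of the other members, Unc5d encodes a netrin-family receptor in migrating neurons and Inhba the beta A subunit of activin and inhibin, a secreted ligand. Unc5d had 58.0 and 48.97 CPM at E13.5 and 130 and 136 CPM at E16.5, a fold of 2.49 (log2 change 1.32, SE 0.08, edgeR adjusted p = 5.4e-06). Inhba had 2.402 and 2.371 CPM at E13.5 and 17.3 and 19.8 CPM at E16.5. These E13.5 levels rest on 40 and 43 counts. Inhba was the gene of the set with the largest relative rise, 7.77-fold (log2 change 2.96, SE 0.16, edgeR adjusted p = 3.6e-06), and 1.25% of tested genes had a larger one. The authors' deposited table gave log2 changes of 2.95 for Inhba, 1.91 for Mef2c, 0.01 for Cux1 and -0.05 for Pou3f3. Which gene was more abundant than another is not stated, because transcript lengths were not used here.

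The tested genes nearest to the 3 most changed members, by Euclidean distance in log2 CPM over the 4 libraries, were Hcn2 for Inhba (distance 0.160), Cspg5 for Mef2c (0.251) and Aatk for Unc5d (0.0751). Hcn2, a channel subunit, had means of 2.48 CPM at E13.5 and 17.9 CPM at E16.5. Cspg5, a neural proteoglycan, had means of 49.97 and 217 CPM. Aatk, a kinase, had means of 52.5 and 134 CPM. The distance matches CPM, which is not divided by transcript length, and with 4 libraries in 2 stages many genes can share such a pattern.

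Relatives and partners of the 9 genes moved in both directions. Of 26 listed, 25 were tested (Mef2b was not), of which 15 rose and 8 fell. Their median log2 change was 0.30. DESeq2 called 12 of them higher and 6 lower. Among POU factors, Pou3f1 rose from means of 54.3 to 84.7 CPM, while Pou3f4 fell from 62.9 to 48.9 CPM. Among UNC5 receptors, Unc5a rose from means of 35.8 to 71.9 CPM and Unc5b from 28.8 to 41.2 CPM. Unc5c had 6.91 and 14.8 CPM at E13.5 and 23.4 and 25.0 CPM at E16.5, which passed in edgeR (adjusted p = 0.0077) and not in DESeq2 (adjusted p = 0.062). Thus all 4 measured UNC5 receptors were higher at E16.5 in edgeR, Unc5d with the largest log2 change of 1.32. Their co-receptor Dcc fell, from means of 335 to 157 CPM (log2 change -1.09, edgeR adjusted p = 1.5e-06).

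Ligand, receptor and antagonist genes of the activin system were also in that list. Fst, which encodes the antagonist follistatin, fell in edgeR from means of 6.33 to 4.08 CPM (adjusted p = 0.025) and was not called by DESeq2 (adjusted p = 0.134). Inha, the alpha subunit that turns the dimer into inhibin, rose from 16.5 and 15.7 CPM to 32.2 and 34.1 CPM, and Inhbb, the beta B subunit, rose from means of 25.2 to 42.6 CPM. The type II receptor genes split: Acvr2a rose from means of 91.4 to 131 CPM and Acvr2b fell from 69.4 to 42.7 CPM. Acvr1b, a type I receptor, rose from means of 140 to 175 CPM. Among LIM-only genes Lmo1 fell from means of 40.2 to 17.9 CPM (log2 change -1.17), whereas Lmo2 rose from 7.57 to 15.6 CPM and Lmo3 from 83.1 to 97.0 CPM. Ldb2, a LIM-domain binding partner, rose from means of 17.4 to 38.0 CPM. Mef2a, a relative of Mef2c, rose from means of 89.8 to 111 CPM, a log2 change of 0.30. Of the FLRT genes, whose products bind UNC5 receptors, Flrt2 rose from means of 95.1 to 129 CPM. Flrt1 (log2 change -0.16, edgeR adjusted p = 0.33) and Flrt3 (0.09, adjusted p = 0.25) did not pass. Rora, a relative of Rorb, had means of 4.23 and 7.04 CPM, a rise in edgeR that DESeq2 did not call (adjusted p = 0.083).

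Other genes linked to callosal or upper-layer neurons did not share one direction. Of 17 listed, 16 were tested (Hspb3 was not), of which 7 rose and 5 fell. Their median log2 change was 0.28. Kcnip2, a potassium channel interactor, rose from 2.88 and 3.20 CPM to 14.5 and 17.2 CPM. Dkk3 (log2 change 1.07) and Ptn, a secreted growth factor (1.04), also rose. Lhx2, a LIM-homeodomain factor of cortical progenitors and upper layers, fell from 314 and 271 CPM to 160 and 137.9 CPM, and Tle1 (log2 change -0.58) and Nectin3 (-0.56) fell too. Among 10 genes of deep-layer neurons 5 rose and 4 fell (median 0.16), and DESeq2 called 3 higher and 4 lower. Sox5 (log2 change -1.06), Tbr1 (-0.83) and Fezf2 (-0.80), which specify deep-layer identity, fell, while Crym, a later corticofugal gene, rose from 1.20 and 0.496 CPM to 7.095 and 7.47 CPM. Ldb2, which is in this list too, rose as given above. Foxp2, a deep-layer factor, rose in edgeR (log2 change 0.33, adjusted p = 0.022) but not in DESeq2 (adjusted p = 0.058), nor in edgeR without E13.5 replicate 1 (adjusted p = 0.141) or E16.5 replicate 1 (adjusted p = 0.0734).

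**Figure D2:**
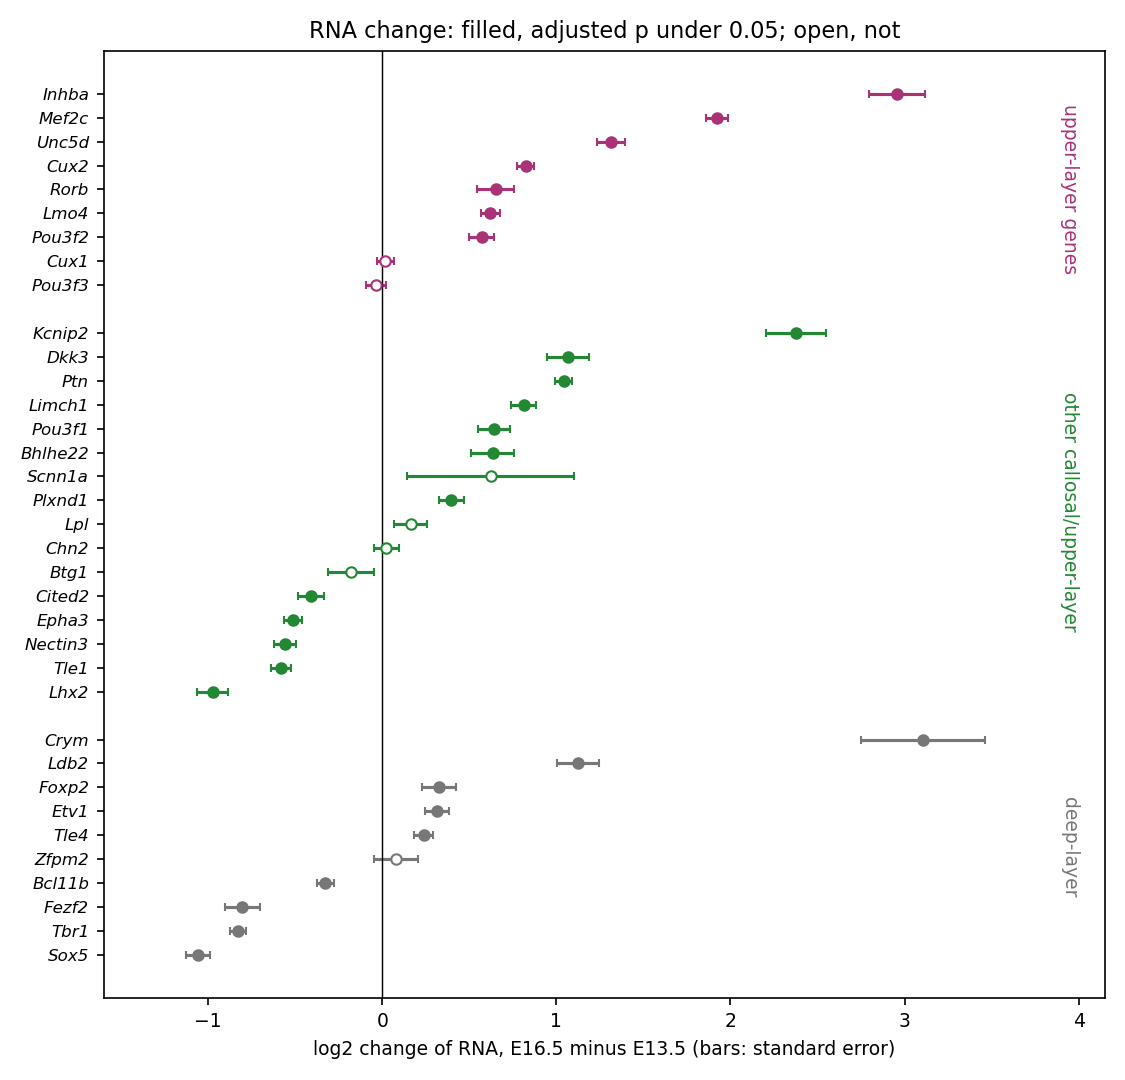
log2 change of RNA from E13.5 to E16.5 (points, with standard error bars) for the 9 upper-layer genes, 16 other callosal or upper-layer genes and 10 deep-layer genes, filled where the edgeR adjusted p was under 0.05. The upper-layer genes lie between -0.04 and 2.96 with none called lower, while both other lists hold called genes on either side of 0.

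Chromatin at the same genes was read from the authors' peak lists, 1 per library, over the gene span and 2 kb on each side. The percent of that window under peaks was computed in each library, and a gene was counted as higher where both E16.5 libraries lay above both E13.5 libraries. For H3K9ac, 7 of 9 genes were higher at E16.5 (Cux1, Cux2, Inhba, Lmo4, Mef2c, Rorb and Unc5d), against 33.9% of 14911 genes with a position, and Pou3f3 was lower, against 25.3%. Span bears on this count: 5 of the 9 genes span at least 100 kb, and 71.9% of tested genes that long with a peak were higher. For H3K9cr the same 7 genes were higher, against 41.7% of all genes and 79.2% of long ones. With 2 libraries a stage, no test was made. The E16.5 lists were also longer, with 49652 and 50668 H3K9ac peaks against 37319 and 34532 at E13.5, and 41074 and 42304 H3K9cr peaks against 32567 and 28968. Cut to the strongest peaks so that all libraries of a mark had equally many, 6 genes were higher for H3K9ac (25.7% of all genes) and 6 for H3K9cr (35.3%), and Cux1 was then lower for H3K9ac, as was Pou3f3, against 30.8% of genes.

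H3K18la did not follow the other 2 marks at these genes. Only Pou3f2 was higher at E16.5, against 6.49% of all genes, and only Pou3f3 was lower, against 37.1%. The other 7 genes overlapped between the stages. The H3K18la lists had no common order by stage, with 73369 and 69157 peaks at E13.5, then 62073 and 76037 at E16.5. With equal numbers of peaks Unc5d also counted as higher (7.29% of all genes did), by 2.05% and 0.860% against 2.07% and 3.54%, and Rorb as lower. Leaving out E16.5 replicate 1, the library with the shortest list, 5 genes counted as higher.

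**Figure D3:**
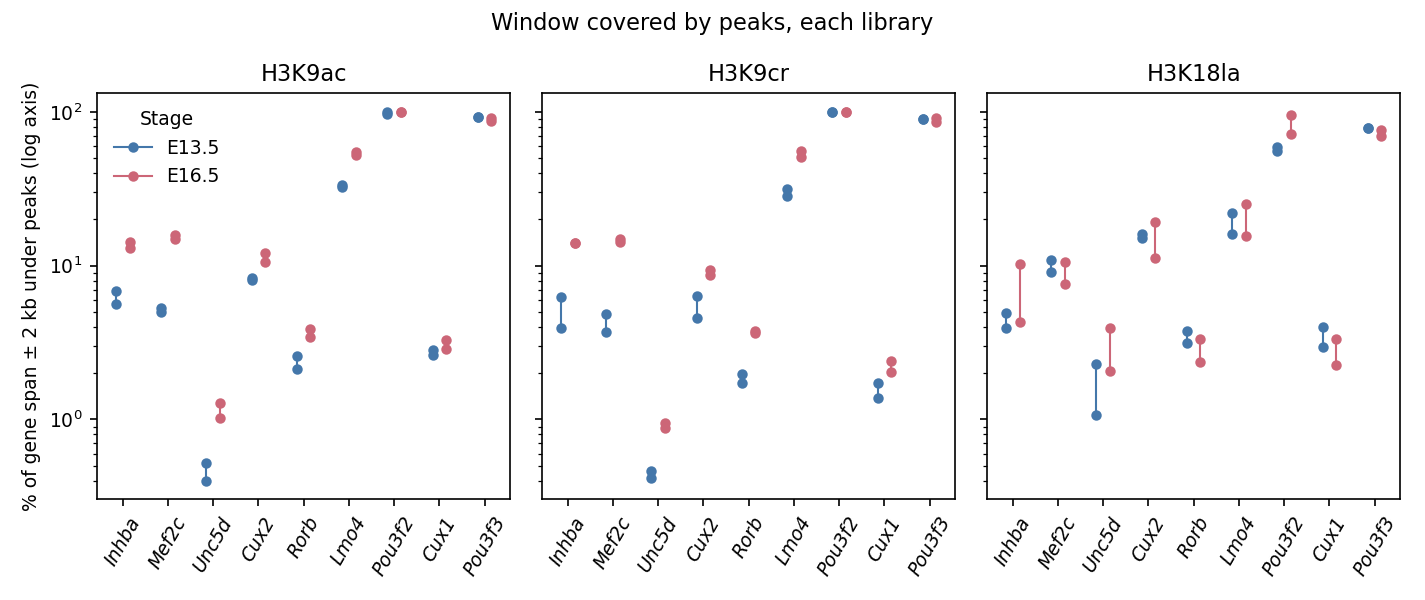
Percent of each gene window (span and 2 kb on each side, log axis) under peaks, for 3 histone marks, with 1 point per library and a line joining the 2 libraries of a stage, E13.5 in blue and E16.5 in red. For H3K9ac and H3K9cr 7 genes are higher at E16.5 with no overlap and Pou3f3 is lower for H3K9ac alone, and for H3K18la the stages overlap at 7 genes.

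At Mef2c (chromosome 13, plus strand, span 163 kb) H3K9ac covered 5.04% and 5.31% of the window at E13.5, then 15.9% and 15.01% at E16.5. Cut to lists of equal length, the values were 5.04% and 5.31% against 14.0% in each later library. H3K9cr went from 4.86% and 3.73% to 14.95% and 14.3%, while H3K18la covered 11.0% and 9.17% at E13.5, then 7.59% and 10.6% at E16.5. The E16.5 to E13.5 ratio of the means was 2.99 for H3K9ac and 3.41 for H3K9cr, and H3K18la overlapped between stages.

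The added length lay mainly downstream of start 2. The H3K9ac peak over that start, whose upstream bases are shown above, was 3041 and 2955 bp long at E13.5, then 13489 and 9897 bp at E16.5. The H3K9cr peak was 3010 and 2946 bp long, then 12622 and 10446 bp. At both stages the peak covered the start, and at E16.5 it reached far into the gene. H3K18la peaks near that start were 1111 to 2157 bp long over the libraries. Their fold enrichment, as the authors' caller gave it, was 3.97 and 7.72 at E13.5, then 11.5 and 9.18 at E16.5. A further H3K18la region downstream, at 83529693 to 83530593, was listed in both E16.5 libraries and in neither E13.5 library. At start 1, the CG-poor one, no peak of a mark or of ATAC lay within 2 kb in any library. Near start 3, H3K9ac and H3K9cr peaks were listed in both E16.5 libraries and in neither E13.5 library, none of them over the start itself. The longest of each E16.5 library were 402 to 610 bp.

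The highest fold enrichment of H3K9ac over Mef2c, as the authors' caller gave it, was at 83517661 to 83519219, between starts 1 and 2 and at no listed start. It was the highest Mef2c value in each of the 4 H3K9ac lists, and an ATAC region of both E13.5 libraries lay within it at 83518009 to 83518630. Of 16 H3K9ac regions at Mef2c, 6 were shared by all libraries and 4 were listed only in both E16.5 libraries. A region is a stretch of overlapping peaks over the 4 libraries.

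**Figure D4:**
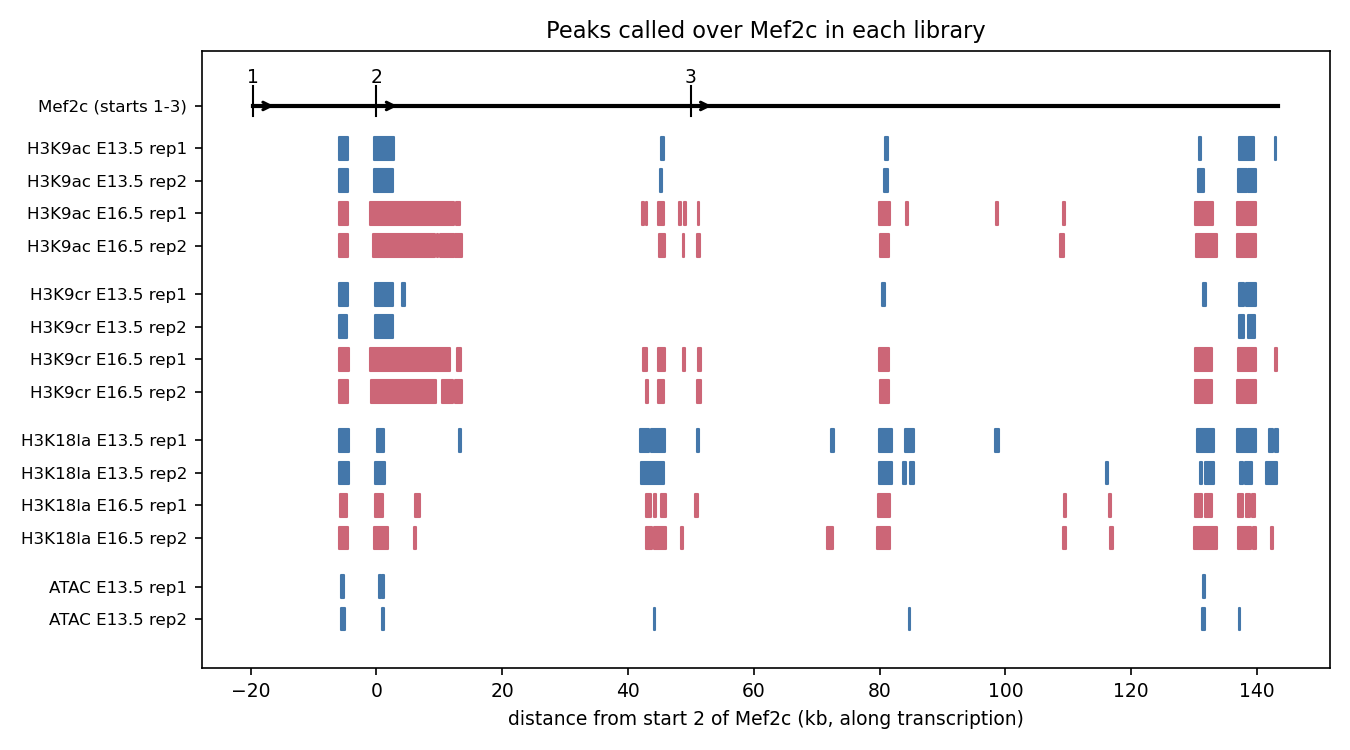
Peaks called over Mef2c in each library of 3 marks and ATAC-seq, drawn as bars by distance from start 2 in kb along the direction of transcription, E13.5 in blue and E16.5 in red; the line on top is the gene with starts 1, 2 and 3. The H3K9ac and H3K9cr bars at start 2 are about 3 kb long at E13.5 and about 10 kb or more at E16.5, and start 1 has none.

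Inhba (chromosome 13, plus strand, span 27.4 kb) showed the next largest relative H3K9cr gain. H3K9ac covered 6.87% and 5.62% of its window at E13.5, then 13.0% and 14.4% at E16.5, and H3K9cr 6.30% and 3.93%, then 14.1% and 14.0%. The H3K9ac peak on its start was 1184 and 1053 bp long at E13.5, then 1731 and 1656 bp at E16.5. An ATAC region inside the gene, at 16023400 to 16023797, was open in both E13.5 libraries. H3K9ac there was listed in 1 of 2 libraries at E13.5 and in both at E16.5, where its fold enrichment was 19.2 and 19.9. At the start it was 28.9 and 12 in the same lists, so the inner region was the lower of the pair in replicate 1 and the higher in replicate 2.

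Lmo4 (chromosome 3, minus strand, span 16.7 kb) had 32.7% and 33.5% of its window under H3K9ac at E13.5, then 54.98% and 52.6% at E16.5. Its peak near start 1 was 4875 and 4971 bp long at E13.5. At E16.5 the stretch held peaks of 10111 and 1053 bp in replicate 1 and of 7279, 2608 and 1020 bp in replicate 2. Neither E16.5 library had an H3K9ac peak over start 1 itself, although peaks lay within 2 kb of it, whereas both E13.5 libraries did. Both replicates thus had more length covered and a break at start 1, and replicate 2 had another break at start 2.

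Rorb and Unc5d are long genes with little of their span marked. Rorb (chromosome 19, minus strand, span 181 kb) had 2.59% and 2.13% of its window under H3K9ac at E13.5, then 3.46% and 3.85% at E16.5, and its start 1 peak lengthened from 3007 and 2473 bp to 4532 and 4692 bp. Its internal start 2 had H3K9ac in 1 of 2 libraries at E13.5 and in both at E16.5. Unc5d (chromosome 8, span 573 kb) had 0.523% and 0.400% at E13.5, then 1.27% and 1.02% at E16.5. At the upper end of the Unc5d span the H3K9ac peak was 2535 and 2070 bp long at E13.5, then 3682 and 3615 bp at E16.5, with an ATAC peak in both libraries. Its lower end had no peak of any kind.

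The CUX genes were both long, with many short marked regions. Cux2 (chromosome 5, minus strand, span 192 kb) had 8.31% and 8.11% of its window under H3K9ac at E13.5, then 12.02% and 10.7% at E16.5. Cux1 (chromosome 5, minus strand, span 319 kb) had 2.81% and 2.63%, then 3.31% and 2.86%. Cux1 was the member whose H3K9ac direction turned when the libraries were cut to equal numbers of peaks, with 2.55% and 2.63% against 2.23% and 1.67%. Its peak at the start was 3291 and 4022 bp long at E13.5, then 3452 and 3031 bp at E16.5, and the stages overlapped. In Cux2 the highest fold enrichment of H3K9ac in each of the 4 lists lay inside the gene, at 121947597 to 121949541 (25.6 and 22.0 at E13.5, 60.3 and 48.9 at E16.5). At the starts it was 20.8 and 16.8, then 39.6 and 21.6. No ATAC region was shared by both libraries at Cux2.

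Pou3f2 and Pou3f3 are short genes inside broad marked domains, so H3K9ac and H3K9cr peaks nearly filled their windows at both stages. The Pou3f2 window (chromosome 4, minus strand, span 6.27 kb) was 97.0% and 100% under H3K9ac at E13.5 and 100% in both libraries at E16.5. The peak itself reached beyond the window, and it was 16875 and 16103 bp long at E13.5, then 22725 and 22460 bp at E16.5. H3K9cr at that start went from 15586 and 15551 bp to 22633 and 22715 bp. The domain was longer in both later libraries for both marks, which the window measure could not show. H3K18la covered 59.2% and 55.6% of the window, then 72.1% and 95.5%.

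At Pou3f3 (chromosome 1, plus strand, span 4.44 kb) the H3K9ac peak at the start was 18840 and 17972 bp long at E13.5, then 17970 and 18031 bp at E16.5. Its H3K9cr peak was 17262 and 17171 bp, then 17274 and 17590 bp. By the peak at the start, the 2 POU genes thus had marked stretches of similar order. Only that of Pou3f2 was longer in both E16.5 libraries for H3K9ac by more than the gap between replicates. A second H3K9ac region at Pou3f3, at 42697305 to 42715119, was called in all libraries and holds part of the gene. Its length in each library was not compared. Within the Pou3f3 window H3K9ac covered 92.8% and 92.1% at E13.5, then 86.8% and 91.7% at E16.5. The highest fold enrichment of H3K9ac went the other way. In the region at the start it was 98.7 and 118 at E13.5, then 146 and 147 at E16.5. In the second region it was 53.5 and 43.6, then 99.3 and 73.3. The noncoding gene Pantr1 lies in the same window, and its RNA fell from 65.1 and 69.6 CPM to 58.0 and 50.9 CPM (edgeR adjusted p = 0.0090). Reads and peaks of neighbouring genes can fall in a window, and Cux1, Cux2, Unc5d, Mef2c and Inhba each also had another listed gene there, while Pou3f2, Rorb and Lmo4 had none.

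Whole regions seldom came or went in all 4 libraries. H3K9ac had 13 gained regions, listed in both E16.5 libraries and neither E13.5 library, in 4 genes (Cux1, Cux2, Mef2c and Unc5d), against 17.7% of all genes and 58.4% of long genes with a gained region. Both H3K9ac lost regions were in Cux1, against 2.54% of all genes and 8.5% of long ones with one. H3K9cr had 10 gained regions in the same 4 genes (14.4% of all genes and 51.9% of long ones with one) and 0 lost (1.02% and 2.83%). All 4 genes span at least 100 kb, and gained regions in them were small, from 302 to 1131 bp for H3K9ac. Kept to equal numbers of peaks per library, 0 gained H3K9ac regions were left (7.31% of all genes had one) and 3 were lost, in Cux1 and Cux2 (6.28%). Of gained H3K9cr regions 2 were left, both in Mef2c (5.6%). With 1 library left out, the H3K9ac gained count ran from 14 to 30 and the H3K9cr count from 11 to 23.

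H3K18la had 11 gained regions in 5 genes (9.52% of all genes and 38.8% of long ones with one), of which 5 were in Unc5d, and 6 lost regions in 3 genes (16.0% and 48.9%), of which 4 were in Cux1. With equal numbers of peaks 11 gained regions were again counted (9.91%). One stretch of Cux1, at 136382602 to 136383272, lay in a lost region of both H3K9ac and H3K18la. In Unc5d, regions around 29146896 to 29147251 were gained for both of these marks.

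ATAC-seq gave the open chromatin of E13.5. The 9 windows held 16 ATAC regions called in both libraries, of which 10 overlapped H3K9ac of both E13.5 libraries and 12 that of both E16.5 libraries, 62.5% and 75.0%, against 71.8% and 77.7% over the whole genome. For H3K18la the counts were 12 and 14, 75.0% and 87.5%, against 75.1% and 70.9%. Of the 13 gained H3K9ac regions, 0 overlapped an ATAC region, against 7.13% of gained regions over the genome, and 3 overlapped H3K18la of both E13.5 libraries, 23.1% against 33.3%. Rorb had 3 such ATAC regions: that at start 1 carried all 3 marks at both stages. Counting a mark only where both libraries of a stage listed it, one inside the gene carried H3K18la alone and the other carried none, though replicate 1 of each stage listed H3K9ac at the former.

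Across the 9 genes the order of RNA change largely followed the order of change in covered length for the lysine 9 marks. Spearman's rho between the E16.5 to E13.5 ratio of covered percent and the log2 RNA change was 0.867 for H3K9ac, 0.917 for H3K9cr and 0.417 for H3K18la over 9 genes. Over all tested genes with peaks at both stages the values were 0.415 (n = 13858), 0.420 (n = 13874) and 0.244 (n = 12922). The gap between the 9 genes, chosen with earlier results known, and all genes was not tested. Each point is a gene, all points share the same libraries, and the windows of Pou3f2 and Pou3f3 had little room for a rise in H3K9ac or H3K9cr. In the other lists 9 of 10 deep-layer genes and 11 of 16 callosal genes were also covered more by H3K9ac at E16.5. For H3K9cr these counts were 8 of 10 and 15 of 16. H3K18la did not follow the other marks in these lists either. It covered 1 of 10 deep-layer genes and 0 of 16 callosal genes more, and 5 and 7 less. The difference between lists was not tested.

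**Figure D5:**
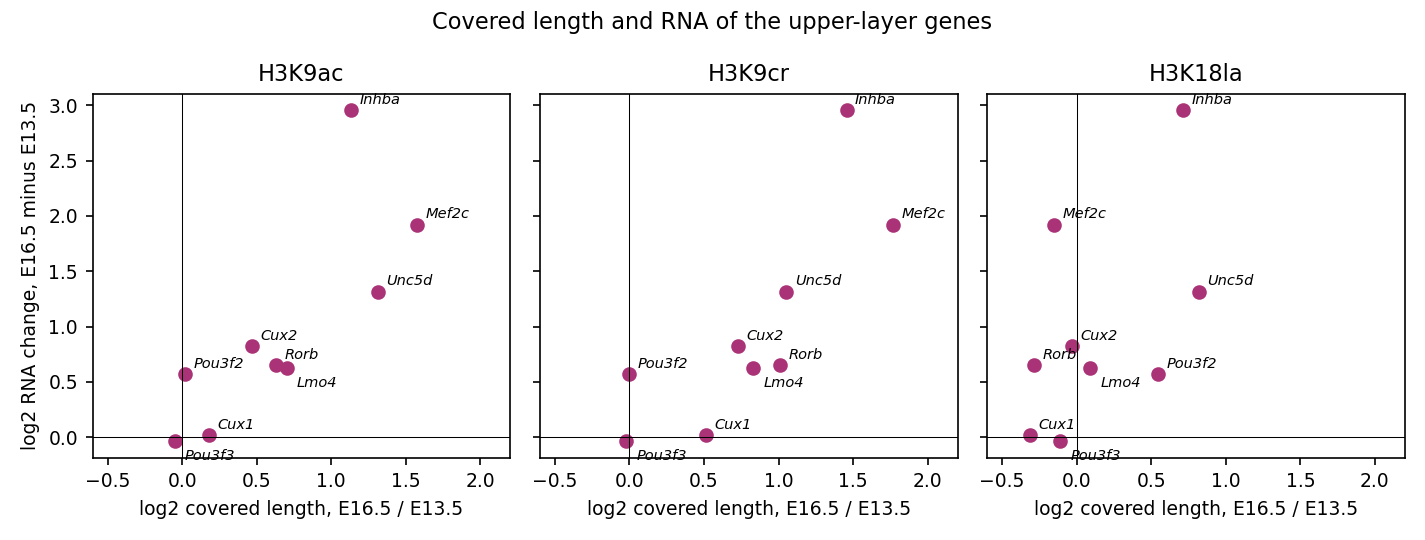
log2 RNA change of the 9 upper-layer genes (vertical axis) against the log2 ratio of mean covered length, E16.5 over E13.5 (horizontal axis), in 1 panel per mark and 1 point per gene. Mef2c, Inhba and Unc5d lie highest on both axes for H3K9ac and H3K9cr, and for H3K18la Mef2c lies left of 0.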

How the data were processed

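The authors deposited expected counts per gene and RNA library, estimated by Salmon 1.1.0 according to the submitters' processing notes; 24.4% to 25.3% of values per library were not whole. A second table deposited by the authors holds log2 changes with a p-value and adjusted p-value per gene, from DESeq2 1.26.0 per the same notes. The submitters' processing notes name Bowtie2 2.4.1, MACS2 2.2.7.1 and GRCm38 for the peak lists. Each peak has, per the file headers, a signal (pileup at its summit), a fold enrichment ratio, and -log10 p and -log10 q values. The caller's control and settings were not stated.

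After rounding, the expected counts went into edgeR 4.0.16 in R 4.3.3 (TMM, filterByExpr, quasi-likelihood F test, E16.5 minus E13.5) over 16237 genes. Adjusted p-values are Benjamini-Hochberg, and a call is an adjusted p under 0.05. On data simulated for this comparison over 15913 genes, the fit recovered 98 of 100 genes changed by 1 and 100 of 100 changed by 2 on the log2 scale, with 13 unchanged genes called. The changed genes were drawn only from those above a minimum mean CPM, and were a far smaller share than was called in the real data. Recovery of genes with low counts was therefore not measured. Peaks of a mark's 4 libraries were merged where they overlapped by 1 bp. Gene positions and promoters are from RefSeq (GRCm38.p6), and 14911 tested genes had a position. The peak steps used Python 3.11.15.

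The 9 genes and the companion lists were chosen with earlier results of these data known. All 9 are named. Of each companion list up to 3 rising and 3 falling genes are named, those with the largest log2 change among called genes averaging 1 CPM or more with no overlap between stages. Family relatives of a member are named too, whether or not they passed, and the nearest gene in pattern for the 3 most changed members. RNA replicates of a stage differed by more than counting noise (chi-square per gene of 5.64 at E13.5 and 7.36 at E16.5). Alternatives were DESeq2 1.42.0, upper-quartile scaling, no filter on low counts, a replicate block, other peak thresholds, windows and overlaps, equal numbers of peaks, and leaving out each library.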

Additional observations from a re-analysis of the deposited data

How the results depend on the processing

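All 7 called genes kept their direction and their call in RNA under each of the 8 alternatives, with log2 changes of 1.85 to 2.01 for Mef2c and 2.85 to 3.05 for Inhba. Cux1 and Pou3f3 were called in none, and their small changes turned sign: Cux1 to -0.0096 without a filter on low counts and between -0.020 and 0.036 with 1 library left out (negative without E13.5 replicate 1 and without E16.5 replicate 2), and Pou3f3 to 0.055 with upper-quartile scaling and between -0.13 and 0.035 with 1 library left out (positive without E13.5 replicate 1 and without E16.5 replicate 2). Under upper-quartile scaling the median over all genes was 0.10, so these changes are relative to it. Over all genes, 5349 were called higher and 3820 lower with that scaling, which turned the balance of 4605 to 4740, and 3399 and 3878 with DESeq2. With 1 library left out, 3730 to 4008 were higher and 4204 to 4497 lower. With the replicate number as a block, 7 members were higher and 0 lower, and 4675 genes were higher and 4851 lower overall. The labels give no pairing, and the deviations of replicate 1 in the stages correlated at 0.125 over genes. The block changed no member call.

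Counts of regions moved more, and the cause was not tested beyond what each setting does. Peaks with a -log10 q of at least 5 gave 5 gained H3K9cr and 7 gained H3K18la regions. Requiring a library to cover 50% of a region gave 1 lost H3K9ac region, 19 gained H3K9cr and 11 lost H3K18la regions. Equal numbers of peaks gave 0 gained H3K9ac regions, 2 gained H3K9cr regions and 2 genes covered more by H3K18la. With 1 library left out, when the other library of its stage decides alone, gained regions ran from 14 to 30 (H3K9ac), 11 to 23 (H3K9cr) and 13 to 32 (H3K18la), lost regions from 3 to 5, 0 to 4 and 8 to 16, and genes covered more from 7 to 8, 7 to 8 and 1 to 5. The highest gained counts came without E16.5 replicate 2 for H3K9ac and without E16.5 replicate 1 for H3K9cr and H3K18la. With 2 libraries a stage and peak lists of unequal length, single gained or lost regions are the least certain values here.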
